A study of Mus musculus with 33 samples.

Results

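A set of 9 genes of mesenchymal identity was followed through fibroblast reprogramming: the zinc finger repressors Snai1 and Snai2, the zinc finger and homeodomain repressors Zeb1 and Zeb2, the basic helix-loop-helix factors Twist1 and Twist2, the paired-related homeobox factor Prrx1, and the structural genes Cdh2 (N-cadherin) and Vim (vimentin). They were taken by symbol from the annotated RNA-Seq table. That choice gave 9 genes, each on 1 line, of 37973 in the table. No measured value entered the choice.

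The Snail, Zeb and Twist families are the classical transcription factors of epithelial-mesenchymal transition, in which epithelial cells lose tight junctions and E-cadherin and become motile. Snail and Zeb proteins bind E-box DNA through their zinc fingers and repress epithelial genes, Twist proteins bind E-boxes as dimers with E proteins such as Tcf3, Tcf4 and Tcf12, and Id proteins sequester those partners. Fibroblasts express these factors as part of their resting state, and fibroblasts that become pluripotent cells pass through the reverse event, a mesenchymal-to-epithelial transition.

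The cells were mouse embryonic fibroblasts (MEFs) from embryos of 14 to 15 days post coitum, genotype Col1a1-OSKM+/- with Rosa26-rtTA+/- and Oct4-GFP+/-, from a cross of B6;129S4 and B6.Cg lines. Doxycycline at 1 µg/ml was in the medium, so that rtTA could switch on the Oct4, Sox2, Klf4 and Myc (OSKM) cassette at Col1a1, and the GFP reporter reads the Oct4 locus. Lentivirus added either Dppa2 and Dppa4, a pair of DNA-binding proteins of pluripotent cells (the Dppa2/4 arm), or a control, whose vector content the labels do not give. Cells were sorted on Thy1, a fibroblast surface antigen, SSEA1, a surface carbohydrate of early pluripotent cells, and GFP. By title, the Thy1 and SSEA1 gates of days 8, 11 and 14 were GFP-negative, and those of days 2 and 4 name no GFP gate. Titles of GFP+ libraries name no Thy1 or SSEA1 gate. Columns were used for 13 control and 17 Dppa2/4 libraries of OSKM cells. The Thy1+SSEA1- gate had 8 libraries (days 2, 4, 8 and 14 in each arm) and Thy1-SSEA1- had 9 (days 2, 4, 8 and 11 in each arm, and day 14 with Dppa2/4). Thy1-SSEA1+ had 6 (days 8, 11 and 14 in each arm), and GFP+ had 5 (days 11 and 14 in each arm, and day 8 with Dppa2/4). Thy1+SSEA1+ was sorted on days 2 and 4 with Dppa2/4 alone. A pair of rtTA-MEF libraries, 1 per arm and titled day 2, carry Rosa26-rtTA+/- and Oct4-GFP+/- without Col1a1-OSKM by their genotype label, but their descriptions call them OSKM-rtTA and give day 1.

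Each arm, day and gate had 1 library. There are no replicates, and nothing says that days, or gates of the same day, came from separate cultures. In gate comparisons, p-values below measure the spread of a difference over days and arms. In the Dppa2/4 comparison and its interaction term they measure it over 13 strata of day and gate, and gates of the same day are not replicates of an arm. In trends over days and against rtTA-MEF they measure the spread over libraries. Values are FPKM, fragments per kilobase of transcript, scaled to a fixed number of mapped fragments. The smallest steps in the values put the OSKM libraries at about 21.8 to 43.4 M fragments (M for a count of 1000000), so Snai1 in GFP+ cells, the lowest member, rested on about 5 to 26 fragments per library.

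Some labels disagreed with the values. The library labelled Dppa2/4 day 4 Thy1+SSEA1- had Dppa2 at 0.354 and Dppa4 at 0.409 FPKM, while the other 3 Dppa2/4 libraries of the gate had Dppa2 at 171 to 599. For the library titled control day 11 GFP+ the title and the description give different gates. It held Nanog at 323 FPKM, as did the Dppa2/4 day 11 GFP+ library. Both libraries were kept as titled, and the limma comparisons and paralog ratio tests that use them were also computed without them. The libraries labelled rtTA-MEF had Pou5f1 at 122 FPKM in the control and 1116 FPKM with Dppa2/4, which goes against a genotype without the OSKM cassette but not against their descriptions, so no effect of OSKM is read from them. Fibroblast markers (Thy1, Col1a1, Col1a2, Pdgfra, Pdgfrb, Dcn, Lum and Postn) summed to 570.9 to 5286 FPKM in the SSEA1- gates, 66.27 to 378.9 in Thy1-SSEA1+ and 27.43 to 76.7 in GFP+. The 6 pluripotency markers summed to 2883 to 5362 FPKM in GFP+ cells and 1.08 to 186.6 in the SSEA1- gates.

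Identifiers and positions follow GENCODE vM21 on GRCm38, the assembly also called mm10. Snai1 (ENSMUSG00000042821) lies at chr2:167538195-167542814 on the plus strand. Snai2 (ENSMUSG00000022676) lies at chr16:14705852-14709385 on the plus strand. Zeb2 (ENSMUSG00000026872) spans chr2:44983632-45117395 on the minus strand. Twist1 (ENSMUSG00000035799) lies at chr12:33957671-33959829 and Twist2 (ENSMUSG00000007805) at chr1:91801461-91848028, both on the plus strand. Prrx1 (ENSMUSG00000026586) lies at chr1:163245119-163313710 on the minus strand. Vim (ENSMUSG00000026728) lies at chr2:13573927-13582826 on the plus strand. Exons of Zeb1, Zeb2 and Twist2 overlap exons of an opposite-strand gene (Gm10125 for Zeb1, Zeb2os and Gm27761 for Zeb2, Gm29100 for Twist2). The strand setting of the counting is not given in the sources used here, so reads of these partners cannot be told apart from those of the members.

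Because Snail, Zeb and Twist proteins read E-boxes, the 250 bases before the start of 6 members were searched on both strands. The motifs were CAGGTG, the E-box form bound by Snail and Zeb, and CANNTG, the general E-box. RefSeq promoter windows on GRCm38.p6 were used for these 6 members (Snai1, Zeb2, Twist1, Twist2, Prrx1 and Vim). No window was searched for Snai2, Zeb1 and Cdh2, so whether they hold an E-box there was not tested. Snai1 held 1 CAGGTG, 126 bases before its start, which reads CACCTG on the strand shown. The single CANNTG match in the 6 members was that same site. Of 32851 windows of this length, 17.2% held CAGGTG and 66.2% held CANNTG. The Snai1 window is shown for its E-box, in capitals, and the Twist2 window for comparison, as Twist2 was 1 of the 2 members called in the Dppa2/4 comparison. Snai1 lies at chr2:167537945-167538194 and Twist2 at chr1:91801211-91801460, both on the plus strand.
Snai1: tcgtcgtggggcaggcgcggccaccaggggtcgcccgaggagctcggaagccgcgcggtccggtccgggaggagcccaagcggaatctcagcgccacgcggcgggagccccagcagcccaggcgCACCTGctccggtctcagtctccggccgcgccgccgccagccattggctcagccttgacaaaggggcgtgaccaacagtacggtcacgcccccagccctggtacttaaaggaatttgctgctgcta
Twist2: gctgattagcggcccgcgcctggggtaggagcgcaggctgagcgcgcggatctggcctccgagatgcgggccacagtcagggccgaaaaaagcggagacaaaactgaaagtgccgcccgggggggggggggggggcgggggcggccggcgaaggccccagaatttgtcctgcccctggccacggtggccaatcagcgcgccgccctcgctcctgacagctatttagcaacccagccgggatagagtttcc

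The members were high in both SSEA1- gates, lower in Thy1-SSEA1+ cells and lowest in GFP+ cells. By median FPKM the order in Thy1+SSEA1- cells was Vim, Prrx1, Twist1, Zeb1, Cdh2, Snai2, Twist2, Zeb2 and Snai1. Ranges in that gate overlapped between each neighbouring pair of this order, except Vim and Prrx1, and Prrx1 and Twist1.

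Snai1, the founding vertebrate Snail repressor of E-cadherin, ranged from 2.419 to 7.85 FPKM in Thy1+SSEA1- cells (median 3.668, 8 libraries) and from 1.324 to 18.89 in Thy1-SSEA1- cells (median 4.935, 9 libraries). In Thy1-SSEA1+ cells it ranged from 0.399 to 1.786 FPKM (median 1.141, 6 libraries). In GFP+ cells it stood at 0.123 and 0.46 FPKM in the control on days 11 and 14, and at 0.152, 0.231 and 0.646 with Dppa2/4 on days 8, 11 and 14. The highest values came from day 2 Thy1-SSEA1- cells, 15.55 in the control and 18.89 with Dppa2/4, and the GFP+ values overlapped those of Thy1-SSEA1+ cells.

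Snai2, also called Slug and known from neural crest migration, ranged from 3.776 to 14.91 FPKM in Thy1+SSEA1- cells (median 10.35) and from 7.863 to 32.71 in Thy1-SSEA1- cells (median 13.35). Its range was 0.584 to 3.963 FPKM in Thy1-SSEA1+ cells (median 1.861). GFP+ values were 0.781 and 0.371 FPKM in the control on days 11 and 14 and 0.405, 0.419 and 0.626 with Dppa2/4 on days 8, 11 and 14. Every GFP+ library lay below every SSEA1- library, and the GFP+ range overlapped the lower end of Thy1-SSEA1+.

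**Figure D1:**
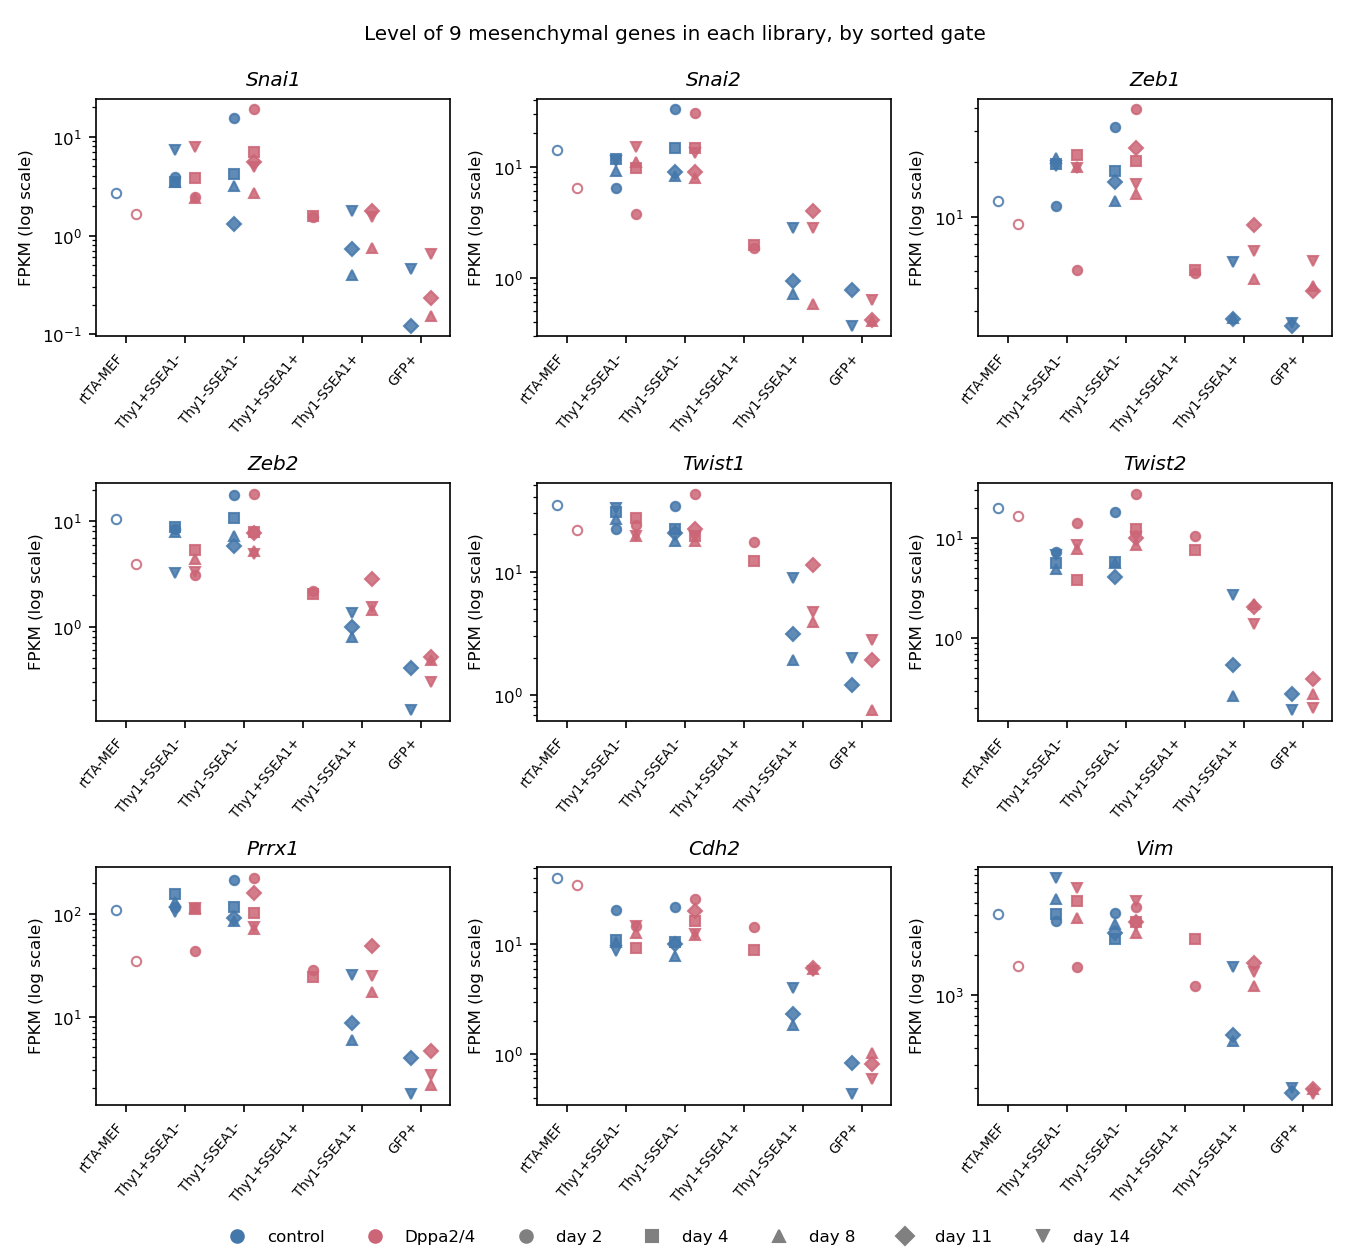
FPKM of the 9 members (log axis, 1 panel per gene) by sorting gate and in rtTA-MEF (open circles), with 1 point per library, the control in blue, Dppa2/4 in red and symbols for the days. Levels step down from the SSEA1- gates to Thy1-SSEA1+ and again to GFP+. The GFP+ points of Snai1, Snai2, Zeb1, Twist1 and Twist2 reach those of Thy1-SSEA1+ cells.

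Zeb1 (ENSMUSG00000024238, chromosome 18), a repressor of E-cadherin held in check by the miR-200 family, ranged from 5.024 to 22.06 FPKM in Thy1+SSEA1- cells (median 18.98) and from 12.2 to 39.3 in Thy1-SSEA1- cells (median 17.93). It ranged from 2.697 to 8.992 FPKM in Thy1-SSEA1+ cells (median 5.038). In GFP+ cells it stood at 2.481 and 2.57 FPKM in the control on days 11 and 14, and at 4.116, 3.869 and 5.647 with Dppa2/4 on days 8, 11 and 14. Zeb1 was the only member whose GFP+ range (top 5.647) overlapped its Thy1+SSEA1- range, whose lowest library was Dppa2/4 on day 2 at 5.024. In the medians, GFP+ cells had 20.4% of the Thy1+SSEA1- level of Zeb1, against 2.34% (Prrx1) to 8.33% (Zeb2) for the other members.

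Zeb2, the paralog of Zeb1 that also binds Smad proteins, ranged from 3.087 to 8.778 FPKM in Thy1+SSEA1- cells (median 4.844) and from 4.857 to 18.32 in Thy1-SSEA1- cells (median 7.807). The range in Thy1-SSEA1+ cells was 0.803 to 2.839 FPKM (median 1.389). In GFP+ cells Zeb2 stood at 0.404 and 0.162 FPKM in the control and at 0.486, 0.51 and 0.299 with Dppa2/4. No GFP+ value of Zeb2 reached a Thy1-SSEA1+ value.

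**Figure D2:**
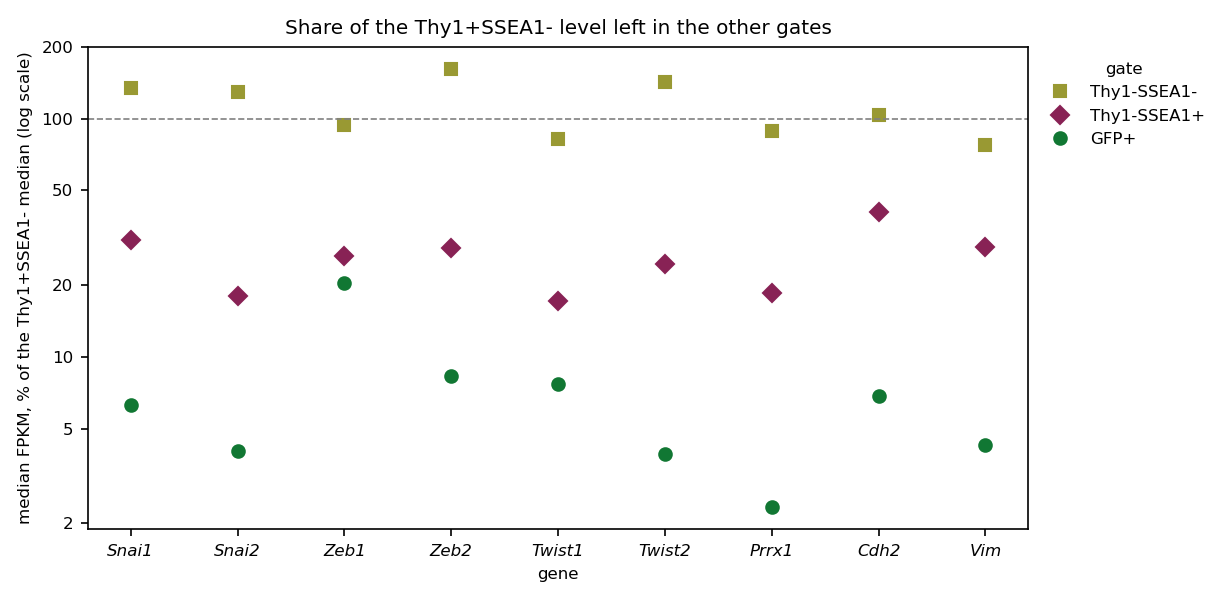
Median FPKM of each member in a gate as a percentage of its Thy1+SSEA1- median (log axis, dashed line at 100%), for Thy1-SSEA1- (squares), Thy1-SSEA1+ (diamonds) and GFP+ cells (circles). The GFP+ point of Zeb1 sits at 20.4%, and the GFP+ points of the other members lie between 2.34% and 8.33%.

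Twist1, a mesoderm and neural crest factor, ranged from 19.24 to 32.43 FPKM in Thy1+SSEA1- cells (median 25.17), the narrowest range of any member there at 1.686-fold. The range was 17.55 to 42.65 in Thy1-SSEA1- cells (median 20.62), 1.916 to 11.31 in Thy1-SSEA1+ cells (median 4.334) and 0.765 to 2.781 in GFP+ cells (median 1.934). Every SSEA1- library was above every Thy1-SSEA1+ library.

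Twist2, also called Dermo1 for its expression in dermis, ranged from 3.805 to 14.17 FPKM in Thy1+SSEA1- cells (median 6.996) and from 4.076 to 27.68 in Thy1-SSEA1- cells (median 9.993). In Thy1-SSEA1+ cells it was 0.264, 0.543 and 2.676 FPKM in the control on days 8, 11 and 14, and 2.205, 2.031 and 1.394 with Dppa2/4. GFP+ values lay between 0.193 and 0.388 FPKM (median 0.274). The control day 8 Thy1-SSEA1+ library fell within the GFP+ range, and the other 5 libraries of that gate did not.

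Prrx1, a limb and craniofacial mesenchyme factor, had the highest median FPKM of the 7 transcription factors in both SSEA1- gates and in Thy1-SSEA1+ cells, while in GFP+ cells Zeb1 was higher (3.869 against 2.689 FPKM). It ranged from 43.25 to 155.9 FPKM in Thy1+SSEA1- cells (median 114.9) and from 70.85 to 226 in Thy1-SSEA1- cells (median 102.3). In Thy1-SSEA1+ cells it was 5.927, 8.71 and 25.57 FPKM in the control on days 8, 11 and 14 and 17.58, 49.11 and 24.98 with Dppa2/4. GFP+ values were 3.931 and 1.759 FPKM in the control and 2.16, 4.584 and 2.689 with Dppa2/4. The Thy1-SSEA1+ libraries spread 8.286-fold, and all lay above all GFP+ libraries.

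Cdh2 (ENSMUSG00000024304, chromosome 18), the cadherin that replaces E-cadherin in mesenchymal cells, ranged from 8.802 to 20.41 FPKM in Thy1+SSEA1- cells (median 11.87) and from 7.908 to 26.06 in Thy1-SSEA1- cells (median 12.4). In Thy1-SSEA1+ cells it was 1.843, 2.322 and 3.98 FPKM in the control on days 8, 11 and 14 and 5.962, 6.049 and 5.69 with Dppa2/4. GFP+ values lay between 0.432 and 1.017 FPKM (median 0.813). All 3 Dppa2/4 libraries of the Thy1-SSEA1+ gate were above all 3 controls, and the gate lay between the SSEA1- gates and GFP+ without overlap.

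Vim, the intermediate filament protein of mesenchymal cells, ranged from 1642 to 7676 FPKM in Thy1+SSEA1- cells (median 4618) and from 2659 to 5146 in Thy1-SSEA1- cells (median 3593). It ranged from 451.8 to 1742 FPKM in Thy1-SSEA1+ cells (median 1332). The 5 GFP+ libraries held 180.7 to 201.9 FPKM, a spread of 1.117-fold. The control day 14 and Dppa2/4 day 11 Thy1-SSEA1+ libraries, at 1643 and 1742, passed the lowest Thy1+SSEA1- library, and every GFP+ library lay below both gates.

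In bulk samples like these, fewer cells of a type and less RNA per cell cannot be told apart. The fibroblast marker sums given above moved with the members from gate to gate, and their part in the results was not tested.

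The first comparison asked what went with gain of SSEA1 among cells without Thy1. All 9 members were lower in Thy1-SSEA1+ than in Thy1-SSEA1- cells, in each of 5 pairs of libraries matched for arm and day. All 9 passed the test (limma on log2(FPKM + 1), Benjamini-Hochberg adjusted p under 0.05 over 15249 genes), where 12.4% of all genes tested were called lower and 21.9% were called in either direction. Prrx1 fell by 2.42 (SE 0.35, limma adjusted p = 0.0072) and Snai2 fell by 2.04 (SE 0.25, adjusted p = 0.0053), both on the log2(FPKM + 1) scale. That scale understates the change of low genes. Snai1, the lowest gene, fell by 1.11 (SE 0.19, limma adjusted p = 0.0108), and the differences of the other 6 lay between -1.38 (Cdh2) and -1.96 (Twist2). The members' median was -1.94, and the median of all genes tested was 0.006. No alternative under which a member was tested ended its call.

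Against Thy1+SSEA1- cells, which differ in both surface antigens, Thy1-SSEA1+ cells gave the same direction in all 4 pairs for all 9 members. All 9 passed (limma, Benjamini-Hochberg), with 13.5% of 15196 genes called lower and 24.1% in either direction. Prrx1 fell by 2.76 (SE 0.39, limma adjusted p = 0.0123), Vim fell by 2.40 and Snai2 fell by 2.31. Zeb2 was the smallest at -1.26 (SE 0.31, limma adjusted p = 0.0351) and lost its call without any 1 of the 4 pairs (adjusted p 0.0552 to 0.0741). Cdh2 (-1.30) lost its call without the control day 14 pair (limma adjusted p = 0.0558) or the control day 8 pair (adjusted p = 0.0505). With no filter on low genes 26160 genes were tested and none passed by limma, although 7430 of them, all 9 members included, had an unadjusted p under 0.05. The members' adjusted p then lay between 0.0556 and 0.1033. This comparison and the first have 3 Thy1-SSEA1+ libraries in common (control day 8 and Dppa2/4 days 8 and 14).

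**Figure D3:**
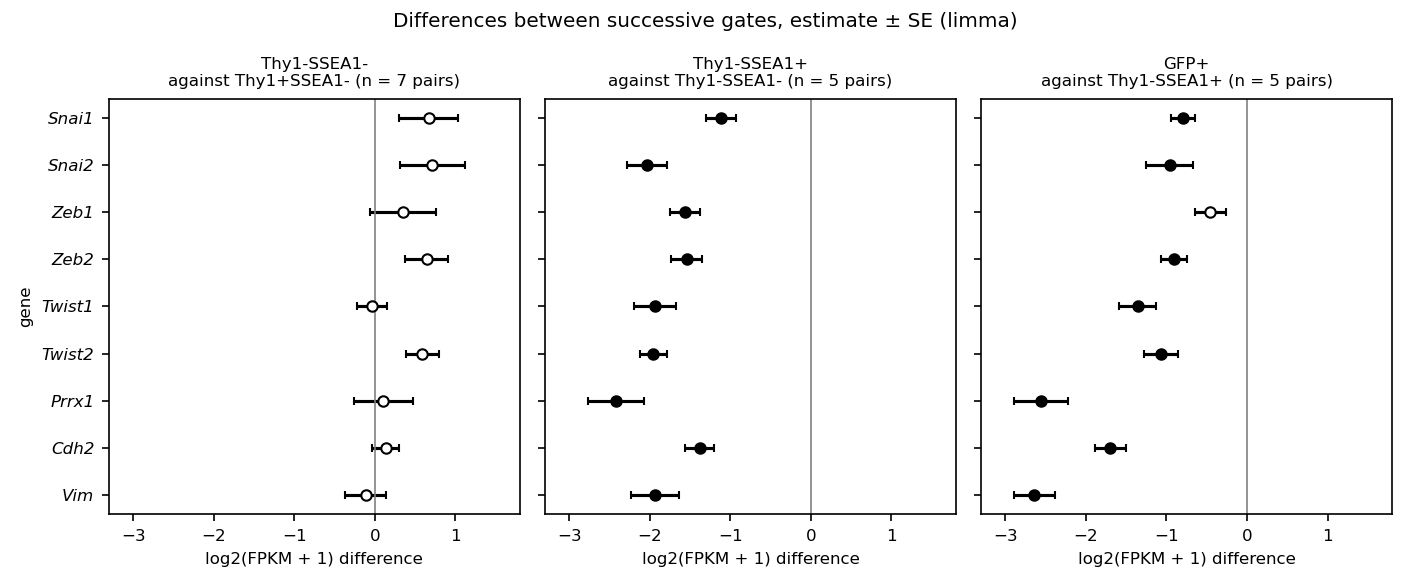
Differences of the 9 members between successive gates on the log2(FPKM + 1) scale, as the limma estimate with its SE over 7, 5 and 5 pairs of libraries, with filled points for adjusted p under 0.05 and open points otherwise. All estimates lie below 0 for the SSEA1 and GFP steps, where Zeb1 at the GFP step is the single open point, and all points are open for the Thy1 step.

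For the Oct4-GFP reporter, GFP+ libraries were compared with GFP-negative Thy1-SSEA1+ libraries in 5 pairs. Titles of GFP+ libraries give no Thy1 or SSEA1 gate, so the step is not shown to be gain of GFP within Thy1-SSEA1+ cells. All 9 members were lower in GFP+ in all 5 pairs and 8 passed (limma, Benjamini-Hochberg), where 25.9% of 15347 genes were called lower and 45.4% in either direction. Vim fell by 2.64 (SE 0.26, limma adjusted p = 0.0012), Prrx1 fell by 2.56 (SE 0.34, adjusted p = 0.0024) and Cdh2 fell by 1.70 (SE 0.20, adjusted p = 0.0018). The differences were -1.36 for Twist1, -1.07 for Twist2, -0.91 for Zeb2 and -0.79 for Snai1, with adjusted p from 0.0054 to 0.0088. Snai2 was called at -0.96 (SE 0.29, limma adjusted p = 0.0372) and lost its call with no filter (adjusted p = 0.0742), with quantile scaling (adjusted p = 0.0592) and without the Dppa2/4 day 11, Dppa2/4 day 14 or control day 14 pair (adjusted p = 0.1092, 0.0988 and 0.1013). Of those called, Snai1, Snai2, Zeb2, Twist2 and Cdh2 reached 1 FPKM in at most 1 GFP+ library and entered the test through their Thy1-SSEA1+ values, so that a difference could hardly be other than lower and the count of 8 is a description. Zeb1 alone did not pass, at -0.45 (SE 0.19, limma adjusted p = 0.0920). With quantile scaling of the libraries 54.4% of the genes called were higher in GFP+, against 42.9% without it.

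The ratio of Zeb1 to Zeb2 set GFP+ cells apart from the other gates. In FPKM it ran from 6.148 to 18.88 in GFP+ cells (median 8.468, 5 libraries), and from 2.703 to 4.158 in Thy1-SSEA1+ cells (median 3.287, 6 libraries). It ran from 1.349 to 5.99 in Thy1+SSEA1- cells (median 3.382) and from 1.658 to 3.119 in Thy1-SSEA1- cells (median 2.563). No library of those gates reached the lowest GFP+ value. From Thy1-SSEA1+ to GFP+ the log2 ratio was higher in 5 of 5 pairs, by 1.60 ± 0.44 (SD, n = 5 pairs). The two-sided exact sign-flip permutation test gave p = 0.0625, the smallest it can give with 5 pairs, and 0.188 adjusted over the 6 ratio tests made. Without the library titled control day 11 GFP+ it was 1.70 ± 0.44 (SD, n = 4 pairs, 4 higher, exact p = 0.125, the smallest possible). These ratios were chosen after their values were seen. At the low Zeb2 levels of GFP+ cells the ratio rests on about 51 to 136 Zeb2 fragments per library.

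**Figure D4:**
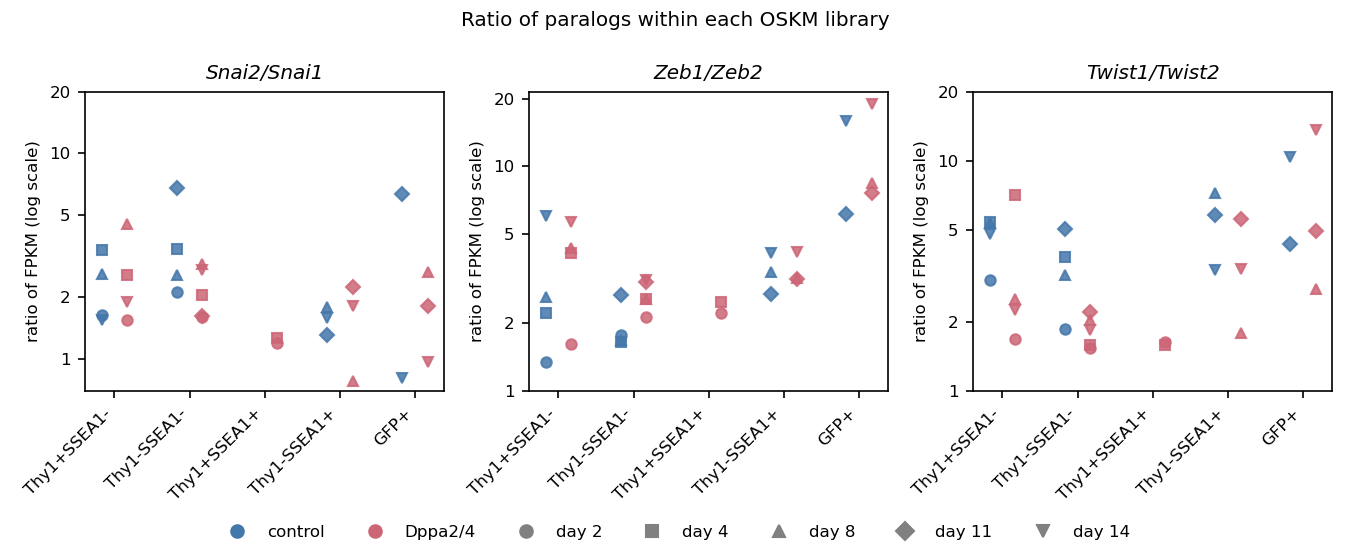
Ratios of the paralogs' FPKM (log axis) by gate in OSKM cells, Snai2 to Snai1, Zeb1 to Zeb2 and Twist1 to Twist2, with 1 point per library, colours for the arms and symbols for the days. The 5 Zeb1 to Zeb2 ratios of GFP+ cells, 6.148 to 18.88, lie above those of every other gate shown.

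From Thy1-SSEA1+ to GFP+ the log2 ratio of Twist1 to Twist2 differed by 0.74 ± 1.07 (SD, n = 5 pairs, higher in 3, exact p = 0.25, adjusted p = 0.375). Twist1 over Twist2 was lower in Thy1-SSEA1- than in Thy1+SSEA1- cells in all 7 matched pairs, by a log2 ratio of -0.69 ± 0.69 (SD, n = 7 pairs). The exact sign-flip test gave p = 0.0156, the smallest possible with 7 pairs, and 0.0938 adjusted over the 6 tests. The highest Thy1+SSEA1- ratio, 7.076, came from the library labelled Dppa2/4 day 4. Without it the difference was -0.45 ± 0.25 (SD, n = 6 pairs, none higher, exact p = 0.03125, the smallest possible with 6 pairs). The ranges overlapped, 1.686 to 7.076 (5.432 without that library) against 1.541 to 5.058. Snai2 over Snai1 showed no shared direction from Thy1-SSEA1+ to GFP+, at 0.38 ± 1.54 (SD, n = 5 pairs, exact p = 0.625, adjusted p = 0.75), higher in 2 of 5 pairs, and at -0.10 without control day 11 GFP+. Between Thy1-SSEA1- and Thy1+SSEA1- cells it differed by -0.01 ± 0.39 (SD, n = 7 pairs, higher in 4, exact sign-flip p = 0.9688, adjusted p = 0.969). Zeb1 over Zeb2 differed there by -0.37 ± 0.54 (SD, n = 7 pairs, higher in 2, exact p = 0.125, adjusted p = 0.25).

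Loss of Thy1 without SSEA1 went with little change that passed a test. Among 7 matched pairs of Thy1-SSEA1- and Thy1+SSEA1- libraries, 0 of 9 members passed (limma, Benjamini-Hochberg), and 2 had an unadjusted p under 0.05. Of 15473 genes, only 0.0259% were called here, and 1611 had an unadjusted p under 0.05. Twist2 was higher in Thy1-SSEA1- cells in 7 of 7 pairs, by 0.59 (SE 0.21, limma unadjusted p = 0.0202, adjusted p = 0.3522). Zeb2 was higher in 6 of 7 pairs, by 0.65 (SE 0.26, limma unadjusted p = 0.0392, adjusted p = 0.4449). The largest estimates were 0.714 for Snai2 (SE 0.405, higher in 4 of 7 pairs, limma adjusted p = 0.6214) and 0.671 for Snai1 (SE 0.365, higher in 5 of 7 pairs, adjusted p = 0.6084).

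Day 2 stood apart in this gate. The Thy1-SSEA1- libraries of day 2 held 212.8 (control) and 226 (Dppa2/4) FPKM of Prrx1, and 31.5 and 39.3 FPKM of Zeb1. Dppa2/4 on day 2 was the highest library of the gate for 7 of 9 members, a description, as the share of all genes highest there was not computed. Both day 2 libraries also had the highest fibroblast marker sums of the gate, 5286 and 4740 FPKM against 611.1 to 1629 in the other 7. Thy1 itself, the antigen used to sort them, was at 164 and 229.6 FPKM there against 39.46 to 77.77 in the other 7, and at 240.7 and 194.8 FPKM in the day 2 Thy1+SSEA1- libraries. On day 2 Thy1 RNA was thus lower in the Thy1- gate in the control and higher in it with Dppa2/4. Without day 2, a choice made after seeing the data, Zeb1 turned from 0.35 to -0.34 and Prrx1 from 0.11 to -0.49 between these gates.

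Over days, no member passed a test of a linear trend within a gate. By title, the libraries of days 2 and 4 name no GFP gate and the later ones were GFP-negative, so day and GFP sorting go together. In Thy1+SSEA1- cells, 0 of 9 members changed by limma with day as a number and arm as a term, and 2.1% of 14742 genes did. An unadjusted p under 0.05 was found for 3 of the 9 members and for 3756 of the 14742 genes. Vim was at 3650, 4120, 5271 and 7676 FPKM in the control on days 2, 4, 8 and 14, and at 1642, 5116, 3840 and 6488 with Dppa2/4. It ended highest on day 14 in both arms, with a slope of 0.10 per day on the log2(FPKM + 1) scale (SE 0.03, limma adjusted p = 0.1106). Without the library labelled Dppa2/4 day 4 the Vim slope was 0.12 and passed (limma adjusted p = 0.0224), in a fit that called 2769 of 14608 genes, 19% against the 2.1% above. Snai1 was at 3.895, 3.478, 3.521 and 7.292 FPKM in the control and 2.449, 3.815, 2.419 and 7.85 with Dppa2/4. Its day 14 values were the highest of each arm, and the slope was 0.08 per day (SE 0.03, limma adjusted p = 0.1297).

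In Thy1-SSEA1- cells 0 of 9 members passed (limma), and 2.77% of 14995 genes did. An unadjusted p under 0.05 was found for 6 of the 9 members and for 3438 of the 14995 genes. The count of 6 was 1 without the Dppa2/4 day 2 library, 3 without the control day 2 library and 0 without day 2. Over all genes tested, the counts in those fits were 1930 of 14793, 2836 of 14812 and 2234 of 14629. Zeb2 was at 17.71, 10.82, 7.201 and 5.771 FPKM in the control on days 2, 4, 8 and 11. With Dppa2/4 it was at 18.32, 7.862, 5.232, 7.807 and 4.857 on days 2, 4, 8, 11 and 14. The control values came down at each later day, and the Dppa2/4 values did so apart from day 11. The slope of Zeb2 was -0.12 per day (SE 0.03, limma adjusted p = 0.0673), and that of Snai1 was -0.17 (SE 0.05, adjusted p = 0.1064). The day 2 libraries of this gate, with their high fibroblast marker sums, set the upper end of both.

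In Thy1-SSEA1+ cells, where only 3 days were sorted per arm, the libraries did not share a course. In the control the values of 8 of 9 members ran upward from day 8 through day 11 to day 14, the exception being Zeb1 on day 11 (2.729, 2.697 and 5.558 FPKM). With Dppa2/4, day 11 was the highest library of the gate for 7 of 9 members. Fibroblast marker sums in these libraries were 66.27, 134.7 and 378.9 FPKM in the control and 74.67, 290.7 and 101.9 with Dppa2/4, highest on the same days as Prrx1 in each arm, and their part was not tested. No test of day was made in this gate.

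The comparison of the arms asked how added Dppa2 and Dppa4 went with the members within a day and gate (13 matched strata). Gates of the same day counted as separate strata, though nothing says that they came from separate cultures. Of the 9 members 2 rose with Dppa2/4 (limma with stratum as a block, Benjamini-Hochberg), Twist2 and Cdh2, while 15.6% of 16835 genes were called higher and 23.4% in either direction. Twist2 averaged 7.62 FPKM with Dppa2/4 and 4.76 in the control, higher in 11 of 13 strata, by 0.49 (SE 0.16, limma adjusted p = 0.0388). Cdh2 averaged 11.1 and 8.52 FPKM, higher in 10 of 13 strata, by 0.42 (SE 0.14, limma adjusted p = 0.0370). These calls sat close to the threshold. Both were lost with no filter (limma adjusted p = 0.0631 for Twist2 and 0.0556 for Cdh2), with quantile scaling (0.0608 and 0.0515) and without the block (0.6950 and 0.7286).

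Single strata decided them too. Twist2 kept its limma call without day 4 Thy1+SSEA1-, day 14 Thy1-SSEA1+, day 11 GFP+ or day 14 GFP+, and lost it without any 1 of the other 9 strata (adjusted p up to 0.0812, without day 11 Thy1-SSEA1-). Cdh2 lost its limma call without day 4, day 8 or day 11 Thy1-SSEA1-, without day 8, day 11 or day 14 Thy1-SSEA1+, or without day 14 Thy1+SSEA1- (adjusted p up to 0.0776, without day 11 Thy1-SSEA1-). When that Thy1+SSEA1- library of day 4 with Dppa2 at control level was left out, both were still called (limma adjusted p = 0.0166 for Twist2 and 0.0223 for Cdh2). Of the genes called, 66.8% were higher with Dppa2/4, and 48.3% were so after quantile scaling.

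The remaining 7 members did not pass. Zeb1 was higher in 10 of 13 strata, by 0.28 (SE 0.15, limma adjusted p = 0.1942). Without day 2 Thy1+SSEA1-, where Zeb1 was 5.024 FPKM with Dppa2/4 and 11.46 in the control, its difference was 0.39 and passed (limma adjusted p = 0.0373). Snai1 (0.21), Prrx1 (0.22), Vim (0.16), Twist1 (0.10), Snai2 (0.06) and Zeb2 (-0.09) had SEs of 0.13 to 0.24 on the log2 scale.

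**Figure D5:**
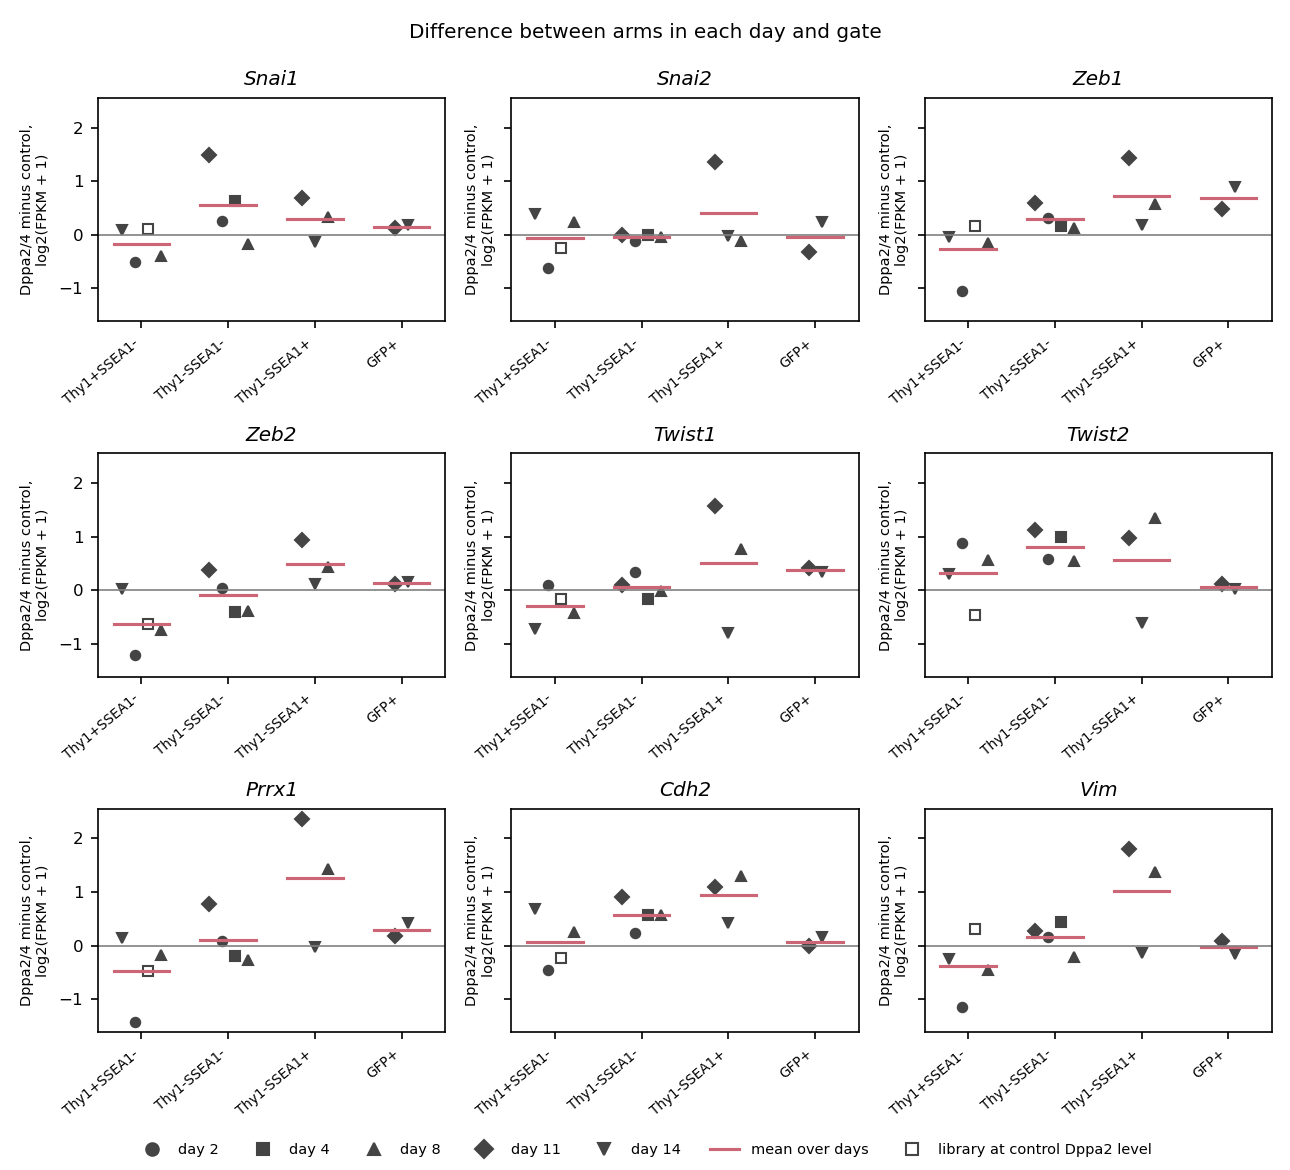
Dppa2/4 minus control on the log2(FPKM + 1) scale for the 9 members, with 1 point per day and gate, symbols for the days, an open square for the day 4 library at control Dppa2 level and a red line at the mean over days. Twist2 and Cdh2 lie above 0 in 11 and 10 of 13 strata, and the Thy1-SSEA1+ points of Prrx1 reach 2.37.

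By gate, Cdh2 differed most in Thy1-SSEA1+ cells, by 0.93 ± 0.45 (SD, n = 3 days, all higher), then in Thy1-SSEA1- cells by 0.57 ± 0.27 (SD, n = 4 days, all higher). Its difference was 0.06 ± 0.50 in Thy1+SSEA1- cells (SD, n = 4 days, 2 higher) and 0.07 ± 0.12 in GFP+ cells (SD, n = 2 days). Twist2 differed by 0.81 ± 0.29 in Thy1-SSEA1- cells (SD, n = 4 days, all higher), by 0.57 ± 1.04 in Thy1-SSEA1+ cells (n = 3 days, 2 higher), by 0.32 ± 0.57 in Thy1+SSEA1- cells (n = 4 days, 3 higher) and by 0.07 ± 0.08 in GFP+ cells (n = 2 days). Whether gates differ from each other in this way was tested for SSEA1- against SSEA1+ or GFP+ strata.

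In that test (limma interaction term), 3 of the 9 members and 3187 of 16835 genes had an unadjusted p under 0.05. No member's difference between gate classes was called after Benjamini-Hochberg adjustment, and 1.02% of all genes tested were called. The largest was Prrx1, at 1.06 (SE 0.41, limma adjusted p = 0.1917): Dppa2/4 minus control averaged -0.19 ± 0.63 over 8 SSEA1- strata and 0.87 ± 1.01 over 5 SSEA1+ or GFP+ strata (SD). Zeb2 gave 0.72 (SE 0.26, limma adjusted p = 0.1644), from -0.37 ± 0.51 to 0.35 ± 0.36, and was higher with Dppa2/4 in 5 of 5 SSEA1+ or GFP+ strata. Zeb1 gave 0.70 (SE 0.26, limma adjusted p = 0.1847), from 0.02 ± 0.49 to 0.71 ± 0.48, and was likewise higher in 5 of 5. The Dppa2/4 library of the day 11 Thy1-SSEA1+ stratum was the highest of that gate over both arms for 7 members. Without that stratum none of the 9 had an unadjusted p under 0.05, while 2202 of 16726 genes did. SSEA1+ and GFP+ strata were all of days 8 to 14, as were 4 of the 8 SSEA1- strata. Within days 8 to 14, a choice made after seeing the data, the differences were 0.75 for Prrx1, 0.53 for Zeb2 and 0.58 for Zeb1 (limma adjusted p = 0.4946, 0.4018 and 0.3574), and no member had an unadjusted p under 0.05. In that fit 2468 of 16335 genes had one.

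Thy1+SSEA1+ cells, which kept Thy1 and had gained SSEA1, were sorted with Dppa2/4 on days 2 and 4. Their members sat unevenly between the other gates. Snai1 was at 1.548 and 1.57 FPKM and Snai2 at 1.858 and 1.982, both within the Thy1-SSEA1+ range. Cdh2 was at 14.46 and 8.933 FPKM, Twist1 at 17.24 and 12.14, and Twist2 at 10.54 and 7.617, all above every Thy1-SSEA1+ library. Prrx1 was at 28.28 and 24.57 FPKM and Vim at 1176 and 2637. Fibroblast markers summed to 304.7 and 284.7 FPKM in this pair. The gate has no control arm and no day in common with Thy1-SSEA1+, and no test of it was made.

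In the libraries labelled rtTA-MEF, Prrx1 was at 108.8 FPKM in the control and 34.96 with Dppa2/4, Vim at 4077 and 1651, and Snai2 at 14.19 and 6.397. All 9 members were lower in the Dppa2/4 library of this pair, whose depth was about 13.7 M fragments against 16.3 M. The share of all genes lower in that library was not computed, so the count only describes 1 library per arm. Fibroblast marker sums went the other way, at 3529 FPKM with Dppa2/4 and 2657 in the control, and their part was not tested. Against the 4 OSKM libraries of day 2 from the SSEA1- gates, 0 of 9 members passed (limma), with 0.0483% of 14501 genes called. An unadjusted p under 0.05 was found for 543 of those genes, 1 member among them. That member was Cdh2, at 40.55 and 35.21 FPKM in rtTA-MEF against 14.6 to 26.06 FPKM in the 4 OSKM libraries (limma unadjusted p = 0.0297, adjusted p = 0.9111). Sorting and the OSKM label cannot be told apart in this comparison, nor can the day, since the descriptions of the rtTA-MEF pair give day 1.

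The wider pathway was read from 6 gene lists. Some listed genes averaged under 1 FPKM in GFP+ cells and entered the GFP test largely through their Thy1-SSEA1+ values. Foxc1 averaged 0.387 FPKM in GFP+ and 3.99 in Thy1-SSEA1+ cells, and Tgfb3 averaged 0.731 and 5.28. For such genes a difference could hardly be other than lower, so counts of listed genes that fell with GFP are descriptions. Of 20 mesenchymal adhesion, matrix and cytoskeleton genes, all 20 fell from Thy1-SSEA1- to Thy1-SSEA1+ (median -2.45, all genes 0.006). From Thy1-SSEA1+ to GFP+ 18 fell (median -1.70, all genes -0.06). The share of all genes tested called lower was 12.4% at the former step and 25.9% at the latter. Postn, the matrix protein periostin, averaged 185 FPKM in Thy1-SSEA1- and 20.1 in Thy1-SSEA1+ cells (-3.27, SE 0.16, limma adjusted p = 0.0012). Axl, a receptor kinase of mesenchymal cells, averaged 86.9 FPKM in Thy1-SSEA1+ and 8.62 in GFP+ cells (-3.08, limma adjusted p = 0.0013).

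Epithelial genes known as targets of Snail and Zeb repression did not move one way through both steps. Of 23, 16 rose and none fell with SSEA1 (median 1.10), where 9.55% of all genes tested were called higher. With GFP 15 fell while 1 rose (median -0.72), where 25.9% of all genes tested were called lower and 19.5% higher. Esrp1, an epithelial splicing factor, averaged 4.03 FPKM in Thy1-SSEA1- and 23.3 in Thy1-SSEA1+ cells (2.35, SE 0.25, limma adjusted p = 0.0046). Epcam, an epithelial adhesion molecule, averaged 38.8 and 134 FPKM (1.88, SE 0.19, limma adjusted p = 0.0046). Krt19, a simple-epithelium keratin, averaged 98 FPKM in Thy1-SSEA1+ and 6.17 in GFP+ cells (-3.69, SE 0.28, limma adjusted p = 9.13e-04). The list and the members both came down at the GFP step.

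With Dppa2/4, 10 of the 23 epithelial genes rose and none fell (median 0.43, all genes 0.03), while among the 20 mesenchymal genes 3 rose and 1 fell (median -0.01). Of all genes tested 15.6% were called higher and 7.75% lower, so the 3 mesenchymal genes that rose were no more than that share. Ocln, the tight junction protein occludin, averaged 17.9 FPKM with Dppa2/4 and 3.13 in the control, higher in 13 of 13 strata (2.32, SE 0.27, limma adjusted p = 2.91e-04). Cd44, a hyaluronan receptor, averaged 104 and 69.4 FPKM (0.73, SE 0.16, limma adjusted p = 0.0051), and Col1a1, the main collagen of fibroblasts, averaged 310 and 454 FPKM (-0.79, SE 0.24, adjusted p = 0.0304). The Dppa2/4 difference was smaller in SSEA1+ or GFP+ than in SSEA1- strata for 4 of 23 epithelial genes (limma interaction term). Among them was Epcam (-1.65, limma adjusted p = 0.0422). This term was called for 1.02% of all genes tested, in either direction.

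Of 17 upstream signals, 6 fell with SSEA1 and none rose, where 12.4% of all genes tested were called lower. With GFP 8 fell and 2 rose, where 25.9% were called lower and 19.5% higher. Tgfb3, a transforming growth factor beta ligand, averaged 17.1 FPKM in Thy1-SSEA1- and 4.19 in Thy1-SSEA1+ cells (-1.95, SE 0.29, limma adjusted p = 0.0076). With Dppa2/4, Bmp7 rose (4.67 against 0.838 FPKM, limma adjusted p = 9.07e-04) and Bmp4 fell (5.52 against 10.1 FPKM, adjusted p = 0.0043), both in 13 of 13 strata.

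Twist partners and their Id antagonists numbered 7, of which 3 fell and 1 rose with SSEA1, and 4 fell with GFP. The shares of all genes tested were 12.4% lower and 9.55% higher with SSEA1, and 25.9% lower with GFP. Tcf4, an E protein that dimerises with Twist, averaged 42.4 FPKM in Thy1-SSEA1- and 17.2 in Thy1-SSEA1+ cells (-1.31, SE 0.28, limma adjusted p = 0.0218), and Id1 averaged 27.1 FPKM in Thy1-SSEA1+ and 5.28 in GFP+ cells (-2.12, SE 0.33, adjusted p = 0.0040). With Dppa2/4, 2 of the 7 fell, Tcf3 (14.5 against 20.1 FPKM, limma adjusted p = 0.0175) and Id4 (4.72 against 7.95 FPKM, adjusted p = 0.0069). Over all genes tested, 7.75% were called lower with Dppa2/4.

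Among further transcription factors of the transition, Prrx2, the paralog of Prrx1, averaged 15.3 FPKM in Thy1-SSEA1- and 4.06 in Thy1-SSEA1+ cells (-1.84, SE 0.39, limma adjusted p = 0.0209). Of the 10 tested, 4 fell and 1 rose with SSEA1, and of 9 tested with GFP 6 fell and 1 rose. Of 11 corepressors and turnover factors of Snail and Zeb, 3 rose, none fell and 8 did not pass with SSEA1. With GFP 5 rose, 1 fell and 5 did not pass. For both lists, the shares over all genes tested were 12.4% lower and 9.55% higher with SSEA1. With GFP they were 25.9% lower and 19.5% higher. Ctbp2, a corepressor recruited by Zeb proteins, averaged 73.9 FPKM in Thy1-SSEA1+ and 122 in GFP+ cells (0.76, SE 0.13, limma adjusted p = 0.0057). With Dppa2/4 Ctbp2 was lower, at 56.5 against 76.3 FPKM (-0.39, SE 0.10, limma adjusted p = 0.0138). In that comparison 5 of the 11 fell, where 7.75% of all genes tested were called lower.

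Across the 30 OSKM libraries the gene whose log2(FPKM + 1) followed each member most closely was named for each, out of 12982 genes. Prrx1 was nearest to Ddr2, a collagen receptor (Pearson r 0.995), Vim to Lbh (0.984), Snai2 to Arhgap24 (0.981) and Cdh2 to Hs6st2 (0.978). Twist2 was nearest to Nsg1 (0.977), Zeb1 to Ikbip (0.976), Zeb2 to the mesenchymal cadherin Cdh11 (0.975), Snai1 to Camk2g (0.975) and Twist1 to Magee1 (0.973). Between members, r ran from 0.762 for Zeb1 with Twist2 to 0.956. These are descriptions: the libraries share cultures, sorting gates and arms, and most of the spread lies between gates.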

How the data were processed

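The authors deposited FPKM values per gene. The submitters' processing notes name TopHat2, Cuffdiff and the mm10 build; versions and strand setting are not given in the sources used here. The table had 33 value columns for 33 samples, of which 1 column matched no sample's labels and 1 sample had no matching column, so 32 were used and 1 was not.

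Values were taken as log2(FPKM + 1). A gene entered a comparison when 2 or more of its libraries reached FPKM 1. Genes were fitted with limma 3.58.1 (R 4.3.3), lmFit and eBayes with a trend, two-sided, with Benjamini-Hochberg adjustment over all genes tested and a threshold of 0.05. Arms were compared within strata of day and gate, gates within pairs of arm and day, and days as a number with arm as a term. The fit was also run on simulated data with independent errors, so that run says nothing about dependence between the real libraries. Other settings tried were no filter or a mean of 5 FPKM and above, a pseudocount of 0.1, quantile scaling, fits without the trend or without the block, dropping doubted libraries, and leaving out each stratum, pair or library in turn; leaving out day 2, keeping days 8 to 14 and leaving a doubted library out of the ratio tests were chosen after seeing the data. Depth was estimated from the smallest nonzero step of values in 2001 genes with a single transcript, so it is approximate, and no counts were recovered for a count test. All 9 members passed the filter in every comparison. All 9 members were counted in every comparison, though not each is named there with its value. From each list, at most the 3 genes with the largest change past the threshold could be named. For likeness, genes needed FPKM 5 or more in 2 or more libraries. The members and lists were chosen with earlier results of these data known. Python 3.11.15 with pandas 2.3.3 and numpy 2.4.6 made the tables.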

Additional observations from a re-analysis of the deposited data

How the results depend on the processing

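The 9 calls of members lower in Thy1-SSEA1+ than in Thy1-SSEA1- cells were kept under each alternative in which the member was tested. For single members over all comparisons, leaving out 1 stratum, pair or library kept the direction and side of the threshold 568 times, lost a call 25 times, gained one 2 times and turned the direction 35 times. For the other alternatives these counts were 520, 22, 1 and 17. All turns were of differences that had not passed the test. No paired analysis by replicate number was possible because the labels give no replicate numbers; strata and pairs of day, gate and arm served as blocks. The cause of each change below was not tested, except that a mean of at least 5 FPKM tests fewer genes and leaving out day 2 uses fewer libraries. With values near or under 1 FPKM in GFP+ cells, the pseudocount limits the differences that Snai1, Snai2, Zeb2 and Twist2 can show.

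Of members higher with Dppa2/4, 2 were called, and the count was 1 with a pseudocount of 0.1, 1 with a mean of at least 5 FPKM, 1 without day 2 and 0 with no filter, quantile scaling, no block or the rtTA-MEF pair added, and 0 to 2 leaving out 1 stratum. Members lower in Thy1-SSEA1+ than Thy1+SSEA1- numbered 9, and 0 with no filter. Members lower in GFP+ numbered 8, and 2 with a mean of at least 5 FPKM. Members rising per day in Thy1+SSEA1- cells numbered 0, and 1 without the library labelled Dppa2/4 day 4 (0 to 1 leaving out 1 library).

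For all genes, the Dppa2/4 comparison called 3933, 2263 with a mean of at least 5 FPKM and 805 with no block. Thy1-SSEA1- against Thy1+SSEA1- called 4. It called 21 with a pseudocount of 0.1, 0 with no filter (2270 with an unadjusted p under 0.05 by limma), 8 with a mean of at least 5 FPKM and 8 with quantile scaling. It called 1 without the library labelled Dppa2/4 day 4, 15 with no block of day, 82 without day 2 and 0 to 7 leaving out 1 pair. Of its calls 50% were higher, and 75% after quantile scaling. Thy1-SSEA1+ against Thy1-SSEA1- called 3340 (1256 to 3307 leaving out 1 pair). Thy1-SSEA1+ against Thy1+SSEA1- called 3656, 0 with no filter, 2024 with no block of day and 1006 to 3365 leaving out 1 pair. GFP+ against Thy1-SSEA1+ called 6963 (4548 to 6408 leaving out 1 pair). The change per day in Thy1+SSEA1- cells called 310, 0 with no filter, with no trend or without day 2 (4511, 3728 and 3668 with an unadjusted p under 0.05 by limma), 631 with a mean of at least 5 FPKM, 2769 without the library labelled Dppa2/4 day 4, and 0 to 2769 leaving out 1 library; 61.9% of calls were higher and 42.3% after quantile scaling. The change per day in Thy1-SSEA1- cells called 415, 228 with no filter, 219 with a mean of at least 5 FPKM, 7 without day 2 and 26 to 330 leaving out 1 library. The term of arm by gate class called 171, 287 with a pseudocount of 0.1, 69 with a mean of at least 5 FPKM, 112 with quantile scaling, 344 without the library labelled Dppa2/4 day 4, 14 without day 2, 69 within days 8 to 14 and 13 to 344 leaving out 1 stratum; 50.3% of calls were higher and 39.3% after quantile scaling. OSKM against rtTA-MEF called 7, 3 with no filter and 0 to 13 leaving out 1 library.

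Directions turned as follows. For Dppa2/4, Snai2 (0.06) was -0.046 with quantile scaling and -0.023 with the rtTA-MEF pair; leaving out 1 stratum gave -0.053 to 0.112 for Snai2, -0.178 to 0.001 for Zeb2 and -0.022 to 0.175 for Twist1. For Thy1-SSEA1- against Thy1+SSEA1-, Twist1 (-0.03) was 0.037 without the library labelled Dppa2/4 day 4, and without day 2 Zeb1 was -0.342 and Prrx1 -0.491; leaving out 1 pair gave -0.173 to 0.054 for Twist1, -0.055 to 0.525 for Zeb1 and -0.268 to 0.241 for Prrx1. Per day in Thy1+SSEA1- cells, Twist1 was 0.005 without the library labelled Dppa2/4 day 4, and without day 2 Zeb1 was -0.014, Twist2 0.059, Prrx1 -0.028 and Cdh2 0.015; leaving out 1 library gave -0.023 to 0.015 for Twist1, -0.027 to 0.033 for Twist2, -0.016 to 0.070 for Prrx1 and -0.063 to 0.002 for Cdh2. Per day in Thy1-SSEA1- cells, Vim (-0.001) was 0.010 with quantile scaling and 0.044 without day 2, and -0.034 to 0.015 leaving out 1 library. In the term of arm by gate class, Twist2 was 0.159 with a pseudocount of 0.1 and Snai1 was -0.016 with quantile scaling and -0.054 without day 2, and within days 8 to 14 Snai1 was -0.017 and Cdh2 -0.011; leaving out 1 stratum gave -0.065 to 0.235 for Snai1, -0.003 to 0.417 for Snai2 and -0.443 to 0.047 for Twist2. For OSKM against rtTA-MEF, leaving out 1 library gave -0.240 to 0.921 for Snai2, -0.339 to 0.546 for Twist1, -0.735 to 0.238 for Twist2 and -0.069 to 0.734 for Vim.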
